A study of Mus musculus with 30 samples.

Results

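The livers compared here came from mice with a yellow or mostly yellow coat and from mice with a pseudoagouti or mostly pseudoagouti coat. They were 8 of the 30 samples of the series, chosen by tissue and coat class alone: 4 livers on the yellow side (2 of the class Yellow and 2 of Slightly_Mottled) and 4 on the pseudoagouti side (2 of Heavily_Mottled and 2 of Pseudo_Ag). All were from male Avy/a mice at day 22, the day of weaning and of coat scoring, and each array held the total RNA of 1 mouse on an Affymetrix Mouse Genome 430 2.0 array. The 2 livers of the middle class, Mottled, were left out of the comparison and are given as values. Both sides carried the same genotype, Avy opposite the nonagouti allele a, on a background kept by sib mating after the Avy mutation arose in C3H/HeJ. The labels number the mice 1 and 2 in each class and give no litter or batch.

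Agouti, the gene a, encodes a secreted antagonist of the melanocortin receptors, and in the hair follicle it switches pigment cells to yellow pigment. In Avy, a retrotransposon that landed upstream can switch agouti on outside the skin. The methylation of that retrotransposon differs between genetically identical mice and runs with the coat, so the coat stands in for how active the allele is. The weanling liver is still growing, and its hepatocytes leave the cell cycle as the organ matures.

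Gene a had signals of 344.8 and 242.7 in the Yellow livers and 345.6 and 214.9 in the Slightly_Mottled livers, against 103.4 and 254.8 in the Heavily_Mottled livers and 129.1 and 73.3 in the Pseudo_Ag livers. Signals are the deposited MAS5 intensities on a linear scale, each array scaled to a trimmed mean of 500. The sides overlapped through a single liver, Heavily_Mottled number 2, which lay above Yellow and Slightly_Mottled number 2. The means were 287 ± 68.2 on the yellow side and 140.2 ± 79.8 on the pseudoagouti side (SD, n = 4 each), a difference of 1.05 on the log2(signal + 16) scale or 2.08-fold. The two-sided exact permutation test over 70 assignments gave p = 0.0857, where 0.0286 is the smallest p the design allows. Without Heavily_Mottled number 2 the difference was 1.36. Omitting the liver of the overlap leaves the sides apart. The exact permutation p is then 0.0286, the smallest possible, and tests nothing further. In the same mice, kidney had 545.3 ± 177 on the yellow side and 144.7 ± 85.9 on the pseudoagouti side (SD, n = 4 each), and brain had 329 ± 84.3 and 124.4 ± 50.4 (SD, n = 4 each). Both tissues reached the smallest exact permutation p, 0.0286 (0.0429 adjusted over 3 tissues), while liver stayed at 0.0857. With permutations kept within the mouse number, the exact p was 0.0556 in kidney and in brain, the smallest that test allows, and 0.167 in liver, so none was under 0.05. The difference between sides in liver minus that in kidney was -0.82 and liver minus brain was -0.28, and neither passed the adjusted threshold in limma.

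**Figure D1:**
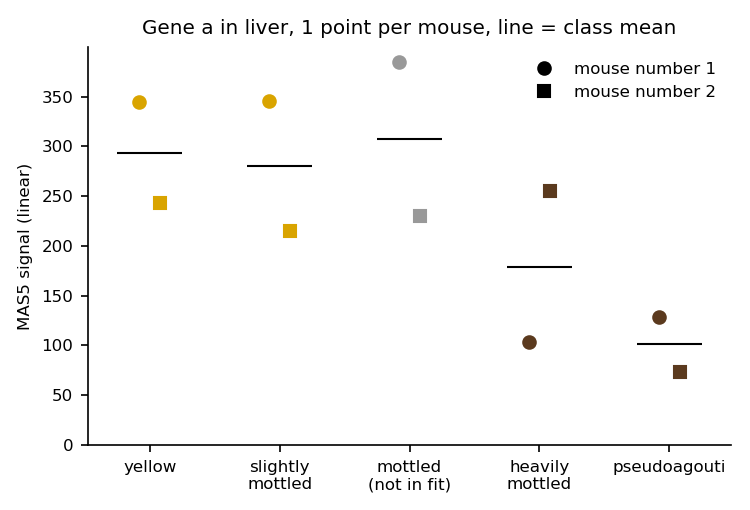
Signal of gene a (MAS5, linear scale) in each of 10 livers by coat class, with circles for mice numbered 1, squares for mice numbered 2 and a line at the class mean. Heavily_Mottled number 2, at 254.8, is the pseudoagouti-side liver that lies among the yellow-side livers, which span 214.9 to 345.6.

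Across the array no gene passed the threshold. In limma with the mouse number as a block, 0 of 22519 probe sets had a Benjamini-Hochberg adjusted p under 0.05 (0% called), and the median difference over all of them was 0.00. At an unadjusted p under 0.05, 800 probe sets (3.55%) were higher and 501 (2.22%) lower on the yellow side, together 5.78%. The 4 livers of one side lay wholly above or below the 4 of the other for 297 probe sets (1.32%) higher and 224 (0.995%) lower. These shares are the background for each count of genes below. Every difference over these 8 livers described from here on therefore failed the correction, with adjusted p of 0.806 or more except for Arrdc3, and counts "at p under 0.05" below use unadjusted limma p-values. The labels tell these 8 mice apart by class and number only. Limma p-values set each side difference against the spread left among these 8 livers after side and number, with variance borrowed from all probe sets.

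The arrays were alike in scale, with median signals of 105.2 to 135 on the yellow side and 115.4 to 144.3 on the pseudoagouti side. The ratio of the 3' to the 5' Gapdh control was 0.707 to 0.816 on the yellow side and 0.725 to 0.888 on the pseudoagouti side. Hepatocyte markers summed to signals of 266413.6 to 375320.2 on the yellow side and 254281 to 377502.6 on the pseudoagouti side over 13 genes. Principal component 1 (30.1% of the variance) split the mice by number, all livers numbered 1 being below 0 and all numbered 2 above. Heavily_Mottled number 1 lay farthest out, at -52.0. It had the highest or lowest signal of the 8 livers for 47 of 92 genes checked, and for 15 of these the log2 difference over 8 livers was more than 1.5 times that without it or, for Ccnd1, changed sign. Among them, the difference without that liver was 0.36 for Ccnb2, 0.34 for Mcm2, 0.55 for Top2a and -0.27 for Hal. For Hao2 the difference was 0.84 over 8 livers and 0.35 without that liver, and others are given beside their results. Most of the 92 genes were named for small p or large differences between sides, so the count of 47 describes these genes only. In bulk tissue, fewer cells of a type and less RNA per cell cannot be told apart.

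Genes of the cell cycle were higher on the yellow side as a group. Of 23 genes on the list, 22 were on the array under their symbol and 21 were bright enough to test. All 21 had a difference above 0, with a median of 0.75 on the log2 scale, against 5512 of 11678 genes above 0 and a median of -0.01 over all genes tested. At an unadjusted p under 0.05, 15 were higher and 0 lower, where 3.55% of all probe sets were higher. The sides did not overlap for 6 of them (Bub1, Mcm5, Birc5, Aurka, Mcm6 and Ccne2), where 1.32% of probe sets lay so. Counting every probe set of these genes, 38 of 38 were above 0 and 26 had p under 0.05. The list was chosen with earlier results of these data known, so its counts describe these livers and test nothing on their own.

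The promoters of 4 of these 6 genes are shown because the genes were high in the same livers and because cell cycle promoters are known for recurring short motifs, among them the CCAAT box bound by NF-Y and sites of the E2F factors. Each line gives the 250 bases before the RefSeq start (build GRCm38.p6), 5′ to 3′ on the gene's strand, with CCAAT, or ATTGG where it lies on the other strand, in capitals. Birc5 had no such match, and Ccne2 had no window in the RefSeq table.
Bub1 (chr2:127831860-127832109, minus strand): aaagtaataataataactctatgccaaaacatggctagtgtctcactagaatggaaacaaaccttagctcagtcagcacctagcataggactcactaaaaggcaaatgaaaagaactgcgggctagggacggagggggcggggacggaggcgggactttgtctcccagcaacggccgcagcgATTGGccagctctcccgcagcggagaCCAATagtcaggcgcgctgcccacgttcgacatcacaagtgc
Mcm5 (chr8:75109259-75109508, plus strand): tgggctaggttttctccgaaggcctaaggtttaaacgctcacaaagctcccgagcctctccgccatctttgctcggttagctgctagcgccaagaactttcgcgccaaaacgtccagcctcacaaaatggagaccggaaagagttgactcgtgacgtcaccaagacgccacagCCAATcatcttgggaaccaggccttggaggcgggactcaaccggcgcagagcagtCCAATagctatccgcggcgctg
Mcm6 (chr1:128359706-128359955, minus strand): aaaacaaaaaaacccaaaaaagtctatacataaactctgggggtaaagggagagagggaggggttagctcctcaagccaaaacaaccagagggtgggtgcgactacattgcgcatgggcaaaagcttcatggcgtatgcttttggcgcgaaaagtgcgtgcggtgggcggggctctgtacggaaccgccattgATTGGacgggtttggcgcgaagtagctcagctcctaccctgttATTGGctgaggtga
Aurka (chr2:172370571-172370820, minus strand): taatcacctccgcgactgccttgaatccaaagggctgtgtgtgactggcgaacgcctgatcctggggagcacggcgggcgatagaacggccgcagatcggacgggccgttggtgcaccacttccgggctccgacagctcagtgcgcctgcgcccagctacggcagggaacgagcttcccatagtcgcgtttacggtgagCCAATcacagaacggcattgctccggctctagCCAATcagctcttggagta
Each of the 4 windows holds 2 such matches. RefSeq windows were found for 17 of the 21 genes, and 14 of them had CCAAT on either strand (14 of 18 windows, 77.8%), against 33.8% of all 32851 windows of the same length. The E2F-type letters TTTGGCGC, TTTCGCGC, TTTCCCGC or TTTGCCGC, on either strand, were in 3 of 18 windows (16.7%) against 1.86% of all, and the 3 were those of Mcm5, Mcm6 and Cdk1. TTTGAA, on either strand, was in 6 of 18 windows (33.3%) against 16% of all. A match in letters is a description of the sequence and shows no binding.

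Bub1, a kinase of the spindle checkpoint, had the smallest p of the list. Its signals were 249.7, 333, 369.5 and 426.3 in the yellow-side livers, against 109.7, 150.7, 120.5 and 219.7 in the pseudoagouti-side livers, each in the order Yellow or Heavily_Mottled numbers 1 and 2, then Slightly_Mottled or Pseudo_Ag numbers 1 and 2. All 4 yellow-side livers were above all 4 of the other side, by 1.14 ± 0.21 on the log2 scale (SE, limma adjusted p = 0.806).
The signals of Mcm5, a subunit of the helicase that opens replication origins, were 1214.8, 1191.5, 2446.9 and 3325.6 on the yellow side, against 519.3, 1075.6, 833.1 and 967.6 on the pseudoagouti side, in that order. With 1 probe set a gene, its difference of 1.16 ± 0.32 (SE) was the largest of the list. The Slightly_Mottled livers were the high ones and Heavily_Mottled number 1 the lowest. The other helicase subunits had differences of 0.71 for Mcm2, 0.77 for Mcm3, 0.75 for Mcm4 and 0.75 for Mcm6, and of these Mcm2 missed p under 0.05.

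Genes of the other steps of replication and division lay in the same direction. Pcna, the sliding clamp of the replication polymerases, had 5118.3, 4377.8, 8131.6 and 6603.2 on the yellow side, against 3560.8, 2973.2, 4938.7 and 3197.2 on the pseudoagouti side, with a difference of 0.71 ± 0.19 (SE). Its sides overlapped through Yellow number 2 and Pseudo_Ag number 1. Rrm2, the small subunit of ribonucleotide reductase, differed by 0.88 and Top2a, which untangles the copied DNA, by 0.82. Among mitotic genes Birc5 (survivin) differed by 1.01, the kinase Cdk1 by 0.87, the proliferation marker Mki67 by 0.81, the spindle kinase Aurka by 0.79, cyclin Ccna2 by 0.70 and Cdc20, an activator of the anaphase ligase, by 0.53. The S-phase cyclin Ccne2 differed by 1.07. At the probe sets used, the 6 members with p of 0.05 or more were Mcm2, Ccnb2, Ccne1, Plk1, Cdkn1a and Ccnd1. The smallest difference was 0.15, for Ccnd1, the cyclin of early G1.

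**Figure D2:**
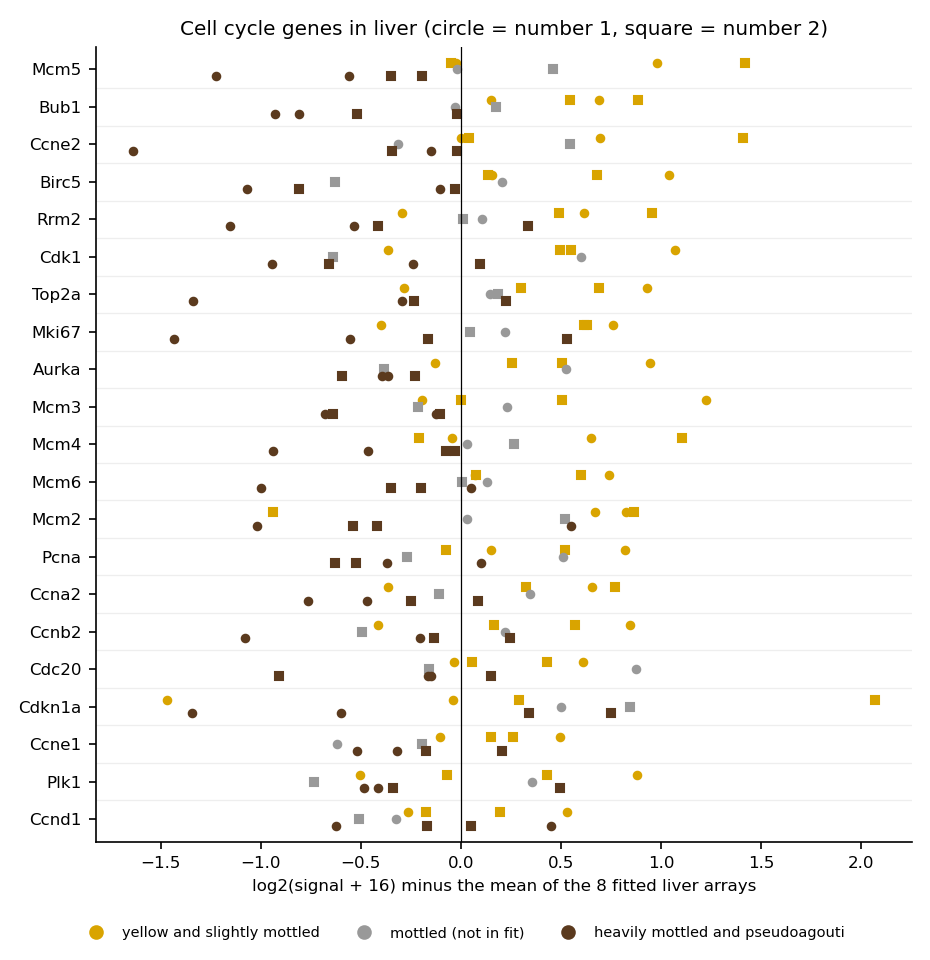
Each of 21 cell cycle genes in 10 livers, as log2(signal + 16) minus the gene's mean over the 8 fitted livers, with yellow-side livers in gold above pseudoagouti-side livers in brown and the 2 Mottled livers in grey. Gold points lie mostly to the right, and for Mcm5, Bub1, Ccne2, Birc5, Aurka and Mcm6 the gold and brown points do not overlap.

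The group difference was unequal among the classes. The median over the 21 members, relative to the mean of the 8 livers, was -0.13 and 0.30 in the Yellow livers and 0.74 and 0.60 in the Slightly_Mottled livers, against -0.94 and -0.34 in the Heavily_Mottled livers and -0.29 and -0.02 in the Pseudo_Ag livers (numbers 1 and 2). Yellow number 1 lay below Pseudo_Ag number 2, and the extremes were the 2 classes of mixed coat. Within number 1 the median difference was 0.92 and within number 2 it was 0.62. Yellow against Pseudo_Ag livers alone, 2 of each, gave a median of 0.15 with 17 members above 0, 4 higher and 1 lower at p under 0.05. The number of members at p under 0.05 was 10 without Slightly_Mottled number 1, 10 without Slightly_Mottled number 2 and 10 without Heavily_Mottled number 1, and 14 to 16 without any other liver. Across these 8 omissions the median was 0.56 to 0.89. As a slope over the 5 coat classes in 10 livers, 5 members had p under 0.05.

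Markers of other cell types are set beside this group. The summed signal of 7 erythroid markers was 9678.4 to 10905.6 on the yellow side and 11384.8 to 14540.7 on the pseudoagouti side, and the sides did not overlap. This gap came from 1 gene, since without Alas2 the other 6 summed to 4593.7 to 8292.7 on the yellow side and 2942.2 to 7602.8 on the pseudoagouti side, and the sides overlapped. Of the 7 markers, 3 had a difference above 0 and 4 below 0. Alas2, the first enzyme of haem synthesis in red cells, had 2607.6, 4309.7, 5084.7 and 2073.2 on the yellow side, against 11280.5, 3782, 7750.3 and 7471.8 on the pseudoagouti side, a difference of -1.09 ± 0.31 (SE). The part of red cell precursors in the cell cycle difference was not tested. The summed markers of macrophages, endothelium, lymphocytes with neutrophils, cholangiocytes and stellate cells overlapped between sides. With the Gapdh 3' to 5' ratio as a covariate the cell cycle median was 1.36, and the part of RNA quality in the result was not tested further.

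In kidney of the same mice the median difference of the 21 genes was 0.42, with 10 higher and 0 lower at p under 0.05 (in kidney 3.68% of all probe sets were higher and 2.14% lower, together 5.82%). In brain the median was 0.05 with 0 members at that p in either direction (1.12% of all probe sets were higher and 1.82% lower, together 2.94%). The difference between sides in liver minus that in kidney was higher at p under 0.05 for 3 of 21 members and lower for 0 (1.42% and 2.5% of all probe sets). The 3 were Bub1, Mcm5 and Ccne2. Liver minus brain was higher for 8 of 21 and lower for 0 (3.02% and 1.43% of all probe sets). None of these passed the adjusted threshold, where 0 of 22519 probe sets were called in either test (881, or 3.91%, at unadjusted p under 0.05 for kidney and 1002, or 4.45%, for brain).

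**Figure D3:**
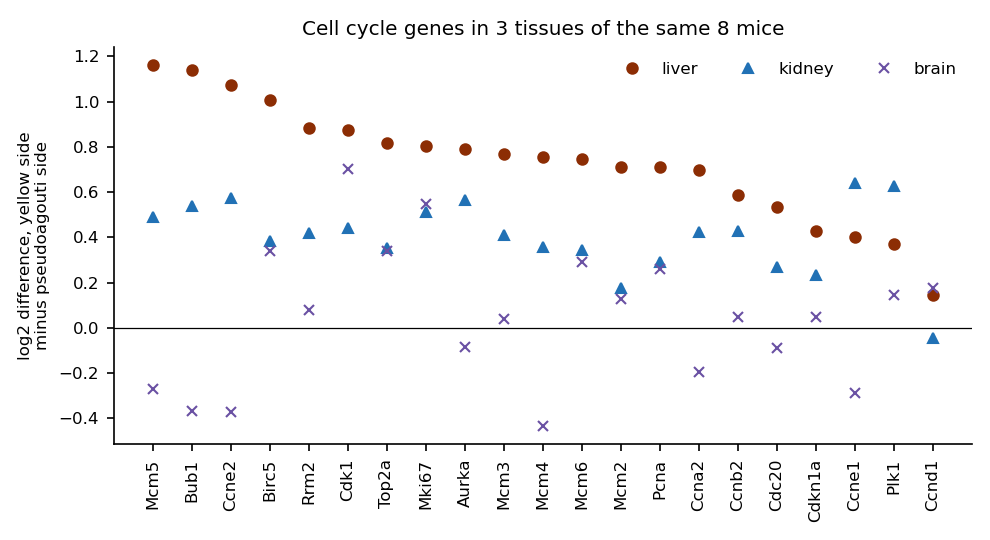
Log2 difference, yellow side minus pseudoagouti side, of 21 cell cycle genes in liver (circles), kidney (triangles) and brain (crosses) of the same 8 mice. Liver values run from 0.15 to 1.16, kidney values from -0.05 to 0.64, and brain values lie on both sides of 0.

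The 10 genes with the smallest p among those higher on the yellow side were Bub1, Sec61a1, Stk17b, Cavin2, Xpo1, Srsf1, Selenoh, Shcbp1, Chek1 and Rrm1. Chek1, the checkpoint kinase of stalled replication, had 148.3, 215.8, 260.2 and 295.4 on the yellow side, against 95.1, 92.3, 98.4 and 113.1 on the pseudoagouti side, a difference of 1.05 ± 0.24 (SE). Its sides did not overlap, and the pseudoagouti-side livers were close to one another. For Chek1, Skp2 and Pkmyt1 the mean signal of the pseudoagouti side (99.7, 100.6 and 100.2) was under the 116.4 of the filter, so these genes were tested because of their level on the yellow side and their exact differences are less certain. Rrm1, the large subunit of ribonucleotide reductase, differed by 0.84 and Shcbp1, which acts in the last step of cell division, by 1.17. Among the 8 largest differences with sides that did not overlap were Skp2, which marks cyclin-dependent kinase inhibitors for degradation, at 1.24, and Pkmyt1, an inhibitory kinase of Cdk1, at 1.24. The other probe sets of Skp2 ran from -0.04 to 0.69. Fignl1, a recombination repair ATPase, was at 1.47, while its second probe set was at -0.20, so its direction is uncertain.

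Sec61a1, the channel of the endoplasmic reticulum membrane, differed by 0.81, although its 6 probe sets ran from -0.05 to 0.81. Xpo1, the main nuclear exporter, differed by 0.68 and the splicing factor Srsf1 by 0.62, with all 6 probe sets of Srsf1 above 0. Stk17b, a death-associated kinase, differed by 0.70, the caveolar protein Cavin2 by 0.65 and the selenoprotein Selenoh by 0.79. Noct, a rhythmic phosphatase of NADP(H), had 4075.3, 3490.3, 4219.8 and 3826.6 on the yellow side, against 461, 2368.9, 2674.9 and 1143.6 on the pseudoagouti side, a difference of 1.51 ± 0.44 (SE). The yellow-side livers were close together and the others spread widely, and without Heavily_Mottled number 1 the difference was 0.94. Slc22a27, an organic anion transporter read by a probe set that may also bind related genes, differed by 1.29 (0.72 without Heavily_Mottled number 1), the kinase Plk3 by 1.44 and Cish, a STAT5 target that damps cytokine signalling, by 1.22. Plk3 rested on Pseudo_Ag number 2, at 16.5 against 228.4 or more in the other 7 livers, and its difference was 0.49 within number 1 and 2.39 within number 2.

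The smallest p of the whole comparison belonged to Arrdc3, an arrestin-domain adaptor that directs membrane proteins to endocytosis, which was lower on the yellow side. Its signals were 1240.1, 2684.6, 851 and 1795.7 in the yellow-side livers, against 3065.2, 4424.3, 3584.7 and 7676.7 in the pseudoagouti-side livers. All 4 yellow-side livers lay below all 4 of the other side, by -1.54 ± 0.21 (SE, limma adjusted p = 0.360). The difference was -1.67 within number 1 and -1.40 within number 2, and -1.40 to -1.72 with any of the 8 livers left out. Its unadjusted limma p was 1.6e-05 with the mouse number as a block and 0.0010 without the block. As a slope over the 5 coat classes in 10 livers it was 0.0022. In liver minus kidney the Arrdc3 difference was -1.27 and in liver minus brain -1.11, neither past the adjusted threshold. Txnip, a relative of Arrdc3 that binds thioredoxin and curbs glucose uptake, had 1104.9, 1263.5, 1015 and 1635.3 on the yellow side, against 1877.8, 2772.9, 2157.3 and 1810.8 on the pseudoagouti side. Its difference was -0.78 ± 0.17 (SE) with no overlap, and its second probe set was at -0.73.

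The other 8 genes of the 10 smallest p in that direction were Zkscan1, Tcp11l2, Gabrp, Deptor, Tprkb, Csrp3, Osgin1 and Rsad2. Osgin1, a growth inhibitor induced by oxidative stress, had 1994.9, 1142.7, 1385.6 and 675.4 on the yellow side, against 6211.5, 2279.1, 2225.6 and 2393.7 on the pseudoagouti side, a difference of -1.27 ± 0.29 (SE). Heavily_Mottled number 1 was the high liver, without which the difference was -1.003, and the sides did not overlap. Csrp3, a LIM protein best known in muscle, differed by -1.13 and Gabrp, a subunit of GABA-A receptors, by -0.89. Rsad2 (viperin) is an antiviral enzyme induced by interferon, and its 3 probe sets differed by -0.69 to -0.83. For Deptor, an inhibitor of mTOR, the named probe set was at -0.66 and the other 4 ran from -0.20 to 0.08, and for Zkscan1, a zinc finger factor, the named probe set was at -0.74 and the other 4 from -0.16 to 0.20. The directions of these 2 genes are therefore uncertain. Among the largest differences with sides apart were also Depp1, a FOXO target, at -1.08, the transcription factor Tfap4 at -1.24, Nr6a1, an orphan receptor of germ cells, at -1.03, the kinesin Kif17 at -0.94 and the platelet chemokine Ppbp at -1.08. Ppbp had 456.9 in Heavily_Mottled number 1 and 162.2 or less in every other liver of the 8, and without that liver its difference was -0.74. The yellow-side mean signals of Tfap4 (78.4), Nr6a1 (83.2) and Ppbp (86.6) were under the 116.4 of the filter, so these genes were tested because of their level on the pseudoagouti side.

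**Figure D4:**
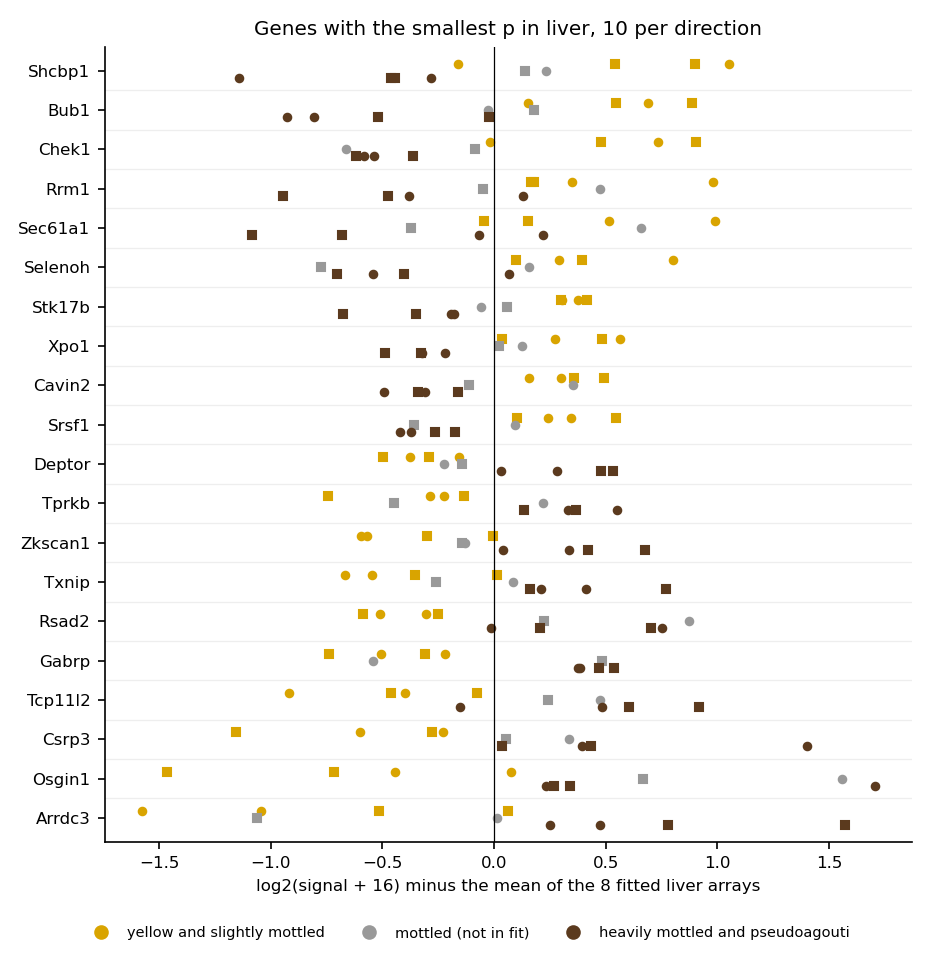
The 10 genes of smallest p in each direction in 10 livers, as log2(signal + 16) minus the gene's mean over the 8 fitted livers, with yellow-side livers in gold, pseudoagouti-side livers in brown and Mottled livers in grey. Shcbp1 and Bub1 are at the top with gold points to the right, and Arrdc3 at the bottom has all 4 gold points left of all 4 brown points.

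Yellow against Pseudo_Ag livers alone, 2 of each class, was the single grouping in which more than 1 probe set passed. There 3 probe sets were higher and 4 lower at limma adjusted p under 0.05, and each class rests on 2 mice. With side and number fitted to so few livers, the spread of each gene was hardly measured. The limma p-values of this grouping therefore rest mostly on variance borrowed from all probe sets. Arrdc3 was at -1.51 (adjusted p = 0.00455) and Alas2 at -1.18 (adjusted p = 0.0472). Rgs16, a brake on G protein signalling, was at -2.36 and -2.98 at 2 probe sets, with 97.5 and 2117.4 in Yellow livers against 2406.5 and 6233.8 in Pseudo_Ag livers at the second. In each class the mouse numbered 1 had the lower value. St3gal6, a sialyltransferase, was at 2.30 and Slc25a25, a mitochondrial ATP carrier, at 1.43, and the remaining probe set had no symbol. Over all 8 livers the same probe sets of Rgs16 differed by -1.24 and -1.50, and another of its probe sets by -0.87. Those of St3gal6 and Slc25a25 differed by 1.06 and 0.70. Other probe sets of Slc25a25 were at 0.59 and -0.65, so the direction of Slc25a25 is uncertain. Rgs16, St3gal6 and Slc25a25 were named after their values were seen.

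Male mouse livers acquire a set of growth hormone dependent genes as the animals mature after weaning. Of 19 tested members of the list of growth hormone response and male-biased genes, 1 was higher on the yellow side at p under 0.05 (Cish). The 4 lower were Hsd3b5, C6, Slco1a1 and Bcl6 (3.55% of all probe sets were higher and 2.22% lower). The median was -0.23 over all 8 livers, -0.42 within number 1 and -0.01 within number 2. Of 6 tested female-biased genes 3 were above 0 and 3 below, and only Hao2, at 0.84, had p under 0.05. Bcl6 was named after its values were seen. Hsd3b5, a male-biased steroid dehydrogenase, had 1390, 926.2, 1430.5 and 808.4 on the yellow side, against 14352.1, 972, 2619.3 and 1672.4 on the pseudoagouti side, a difference of -1.33 ± 0.47 (SE). Heavily_Mottled number 1 stood far above the rest, and Heavily_Mottled number 2 lay within the yellow side. Without Heavily_Mottled number 1 the difference was -0.69. Slco1a1, a male-biased uptake transporter of organic anions, had 2188.2, 2861.8, 2000.4 and 783.1 on the yellow side, against 12917.8, 2827.2, 2529.4 and 4007.5 on the pseudoagouti side. It was again Heavily_Mottled number 1 that was high, and without it the difference was -0.80, against -1.30 with it, and no longer at p under 0.05. For C6, a complement component, the difference was -0.99 with that liver and -0.56 without it. The repressor Bcl6 had 226.5, 199.6, 144 and 513.5 on the yellow side, against 1743.6, 1956.8, 635.2 and 180.6 on the pseudoagouti side, where Pseudo_Ag number 2 lay among the yellow-side livers. Without Heavily_Mottled number 1 the median of the list was -0.08 and 2 members were lower, and without Yellow number 1 only 1 was lower. The growth factor Igf1 and the receptor Ghr differed by 0.05 and -0.23, both with p over 0.05.

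Genes of bile acid and drug metabolism leaned lower on the yellow side by small amounts. Of 18 bile acid genes 0 were higher and 3 lower at p under 0.05 (2.22% of probe sets were lower), with a median of -0.21. Cyp8b1, which sets the share of cholic acid, had 4661.6, 3815.6, 2955.9 and 2719.6 on the yellow side, against 9080.6, 5527.9, 4647.4 and 4171.5 on the pseudoagouti side, a difference of -0.69 ± 0.23 (SE). Nr0b2, the repressor SHP, differed by -1.14 and had its highest value, 3450, in Heavily_Mottled number 1, without which the difference was -0.62. Cyp7a1, the rate-limiting enzyme of the pathway, had a difference of 0.00. Of 24 cytochrome P450 and conjugation genes 0 were higher and 4 lower, among them Gsta2 at -1.13, Cyp2b10 at -0.92 and Ces2a at -0.43. Of 16 oxidative stress and metallothionein genes 0 were higher and 2 lower, Osgin1 and, at -0.35, Gclm, a subunit of the enzyme that makes glutathione. Without Heavily_Mottled number 1, Cyp2b10 was at -0.57, Ces2a at -0.31 and Gclm at -0.27, none at p under 0.05. Gsta2, at -0.96, and Cyp8b1, at -0.47, were still at p under 0.05 without it. Over all 8 livers the median of the P450 list was -0.15 and that of the oxidative stress list -0.15.

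Energy metabolism showed little. None of 21 fatty acid oxidation genes, 21 genes of gluconeogenesis and insulin signalling, 19 cholesterol synthesis genes, 21 oxidative phosphorylation genes and 14 proteasome genes had p under 0.05 in limma in either direction. Their medians were -0.15, 0.00, 0.13, -0.07 and 0.09. Of the fatty acid oxidation genes 17 were below 0 and 4 above. For 2 of the 21 all yellow-side livers lay below the other side (0.995% of probe sets lay so). Of 21 genes of fatty acid and triglyceride synthesis 1 was higher, Srebf1 at 0.34, and 1 lower, Mlxipl at -0.43. These 2 encode the insulin-driven and the carbohydrate-driven regulator of that pathway, and they lay on opposite sides of 0. Of 17 urea cycle and amino acid genes Got1 was higher by 0.42 and Hal lower at -0.42.

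Stress, signalling and immune lists were mixed. Of 22 genes of endoplasmic reticulum stress 4 were higher and 1 lower, with Dnajb11 at 0.44, Manf at 0.65 and the pseudokinase Trib3 at -0.66. Among 15 heat shock chaperones Dnajb1 was higher by 0.72 and Hspb1 lower at -0.65. Of 14 immediate early genes Jun was higher at 0.60 while Egr1 and Junb were lower at -0.92 and -0.98. Jun and Junb, of 1 family, thus lay in opposite directions, although the second probe set of Jun was only at 0.14. Of 16 interferon response genes 0 were higher and 2 lower, Rsad2 and Oas1a, and the sides did not overlap for either (0.995% of probe sets lay so). The clock repressor Nr1d1 was lower at -0.78 and the glucocorticoid-induced kinase Sgk1 higher at 0.51, each the single member of its list at p under 0.05. Of 22 acute phase and plasma protein genes Saa1, at -0.54, was the only one.

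**Figure D5:**
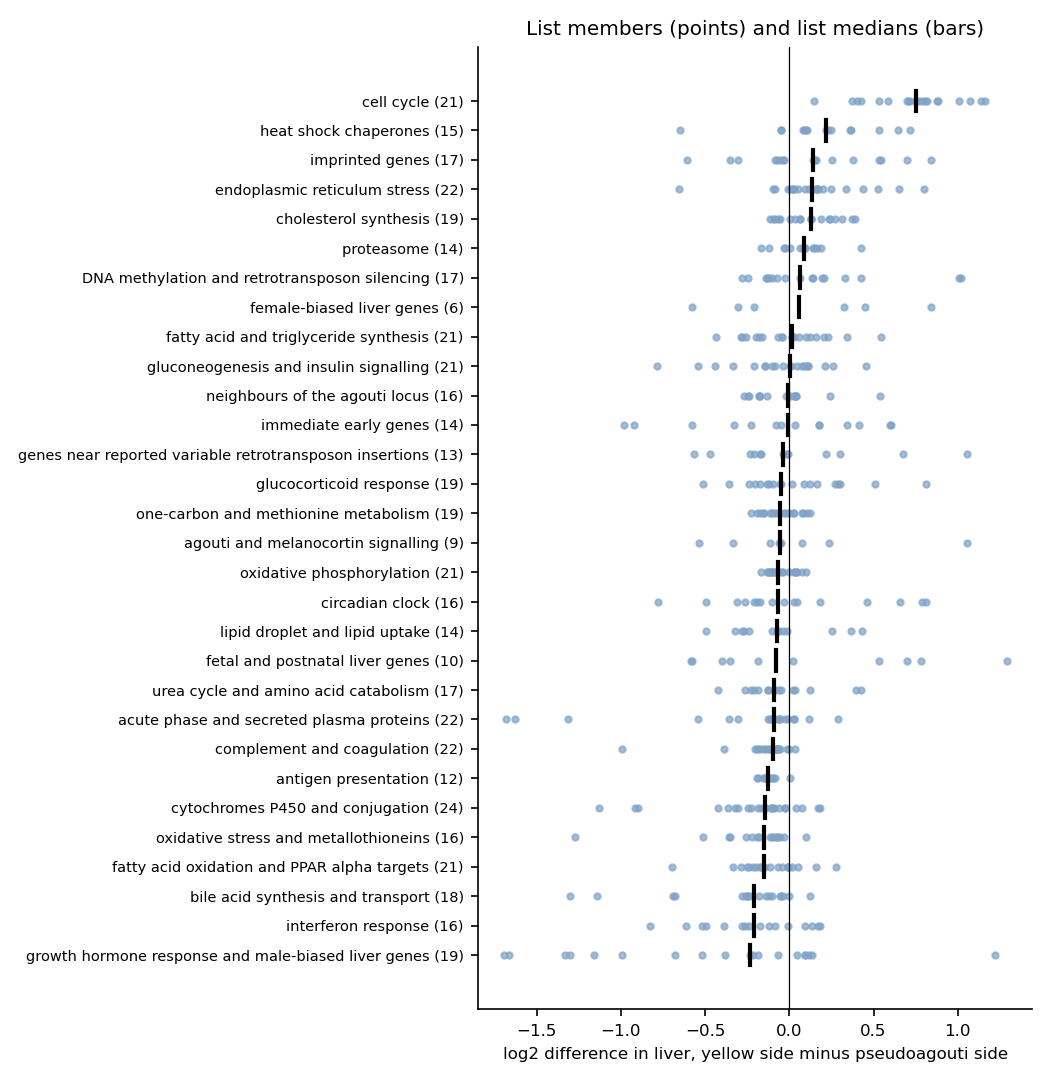
Log2 difference in liver, yellow side minus pseudoagouti side, of each tested member (points) and the median (bars) of 30 gene lists, with the number of tested members in parentheses. The cell cycle list has the highest median, 0.75, and the list of growth hormone response and male-biased genes the lowest, -0.23.

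The lists of fetal liver and imprinted genes showed no lean as groups, and a few members differed. The 10 fetal and postnatal genes had a median of -0.08, with 5 above 0 and 5 below. The 17 imprinted genes had a median of 0.14, with 9 above 0 and 8 below. Peg3, an imprinted zinc finger gene, had 862.1, 741, 790.8 and 893.6 on the yellow side, against 227.3, 694.2, 633.4 and 609.4 on the pseudoagouti side, a difference of 0.70 ± 0.28 (SE) with no overlap. Grb10, an imprinted inhibitor of insulin signalling, differed by 0.84, and Gpc3, a fetal liver glypican, by 0.78. In each of these 3 genes Heavily_Mottled number 1 was the lowest of the 8 livers. Without it the differences were 0.34 for Peg3, 0.43 for Grb10 and 0.43 for Gpc3, and none of the 3 was at p under 0.05. Of 17 imprinted genes 2 were higher and 0 lower at p under 0.05, and of 10 fetal and postnatal genes 2 were higher and 1, Cd24a, lower. Over all probe sets 3.55% were higher and 2.22% lower. Peg3 is in both lists and was counted in each.

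Few partners and neighbours of gene a differed between the sides. Of 9 tested genes of agouti and melanocortin signalling, gene a was the only one at p under 0.05, and of 16 tested neighbours of its locus E2f1 was the only one. E2f1, a transcription factor that drives entry into S phase, had 198.3, 214, 312.1 and 223.8 on the yellow side, against 143.6, 119.9, 157 and 215 on the pseudoagouti side, a difference of 0.54 ± 0.23 (SE). Of 13 genes near reported variable retrotransposon insertions, gene a and Cdk5rap1, at 0.68, had p under 0.05. Of 17 genes of DNA methylation and retrotransposon silencing 2 were higher, the remodeller Hells at 1.01 and Uhrf1, which guides maintenance methylation after replication, at 1.02. Their second probe sets were at 0.47 and 0.90, and of the 17 genes 9 were above 0 and 8 below. Like the cell cycle genes, Hells and Uhrf1 were highest in the Slightly_Mottled livers (726.8 and 788.2 for Hells, 947 and 792.5 for Uhrf1). Both are also known to be most active in dividing cells, and the part of cell division in their differences was not tested. Dnmt1, the maintenance methyltransferase, differed by 0.33 and did not reach p under 0.05.

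Markers of other cell types gave few differences. Prss2, a pancreatic trypsinogen, had 56.1, 219.7, 42.7 and 36.4 on the yellow side, against 113, 446.5, 209.8 and 437.9 on the pseudoagouti side, a difference of -1.72 ± 0.42 (SE). Its yellow-side mean, 88.7, was under the 116.4 of the filter. Cela1, the other pancreatic gene tested, a digestive elastase, differed by 0.21, and the summed signal of the 4 kidney, brain and pancreas markers overlapped, at 3070.6 to 4455.6 on the yellow side and 2465.5 to 6510.3 on the pseudoagouti side. The single markers at p under 0.05 in other lists did not stand for their lists. The fat hormone Retn differed by -0.85 and Fabp4, the other adipose gene tested, by 0.35. Cd79a, of B cells, differed by -0.60 and Ighm, also of B cells, by 0.30, and the 9 lymphocyte and neutrophil markers had a median of 0.00. The yellow-side means of Retn (107.6) and Cd79a (113.0) were under the 116.4 of the filter. These 2 genes were tested because of their level on the pseudoagouti side. Cd24a differed by -0.58, while the other cholangiocyte genes were at 0.66 for Epcam, 0.45 for Krt7 and -0.09 for Anxa4. Lyve1, a gene of sinusoidal endothelium, differed by 0.50, and 9 of 11 endothelial markers were above 0. No marker of Kupffer cells, hepatocytes, pericentral hepatocytes or stellate cells had p under 0.05 in limma, over 13, 13, 11 and 13 genes. The part of these markers in the other results was not tested.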

How the data were processed

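Total RNA of liver from 8 male mice was measured with 1 array per mouse. The authors deposited an intensity for every probe set on a linear scale, made with MAS5 per the submitters' processing notes (version not given in the sources used here). Arrays were used as deposited, after log2(signal + 16), and the number of arrays limits the precision. The 64 control probe sets of 45101 were left out. The platform annotation gave 34945 probe sets exactly 1 symbol, 932 several and 9160 none. Probe sets with a mean log2 value over the 8 livers no lower than the median one (a signal of 116.4) were tested, 22519 in all, for 11678 genes.

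limma 3.58.1 in R 4.3.3 (lmFit, eBayes with a mean-variance trend) fitted side plus the mouse number as a block, with Benjamini-Hochberg adjusted p under 0.05 as the threshold. Within-mouse differences of liver minus kidney and liver minus brain were fitted likewise. For gene a, an exact permutation test (two-sided) was used. The labels do not say what the number stands for. Deviations of each liver from the mean of its side were correlated over the tested probe sets. Same-number livers of opposite sides correlated at 0.03 to 0.37 and different-number livers at -0.35 to -0.05, so livers of the same number varied together.

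Named genes were gene a, the 10 of smallest p and the 8 largest without overlap in each direction, up to 4 per direction in each tissue test and up to 3 members per list. Each list gene stood by its brightest probe set and other genes by that of smallest p. Of 701 genes in 41 lists 633 were on the array under their symbol and 570 were tested. Members and lists were chosen with earlier results of these data known. The fits were tested on simulated data. Alternatives were other offsets, filters, normalization, covariates and class groupings, probe sets without shared-sequence suffixes, no block, no trend, and each liver left out. Promoter sequence is from RefSeq, GRCm38.p6.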

Additional observations from a re-analysis of the deposited data

Results flagged for a closer look

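Of 194 checks of a side's 4 livers for a value far from the other 3, 9 (4.64%) met the criterion, and chance alone gives about 1 in 20. On the pseudoagouti side Heavily_Mottled number 1 accounted for 5 of them. It had a signal of 6211.5 for Osgin1, against 2225.6 to 2393.7 in the other 3 livers of that side, and 456.9 for Ppbp, against 140.4 to 162.2. It was low for the transporter Slc22a27, at 407.1 against 1737.2 to 2259.5, for Hells, at 137.2 against 284.9 to 314.8, and for Peg3, at 227.3 against 609.4 to 694.2. Pseudo_Ag number 2 had 401.3 for Plk1, a mitotic kinase, against 195.7 to 218.4. On the yellow side, Yellow number 2 had 1066.5 for Grb10, against 1831.3 to 1967.1, and 432.3 for Mcm2, against 1354 to 1550. Yellow number 1 had 827.3 for Mki67, against 1687.4 to 1862.1.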

How the results depend on the processing

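Of 20 alternatives, no probe set passed the adjusted threshold in 18. Yellow against Pseudo_Ag alone called 3 higher and 4 lower, and omission of Yellow number 2 called 1 lower (Mup10, a major urinary protein, -2.92). At unadjusted p under 0.05, no filter gave 1245 higher and 1208 lower of 45037 tested (2.76% and 2.68%), no replicate block 528 higher, the coat slope 265 lower and probe sets without shared-sequence suffixes 526 higher of 16229 tested (3.24%). Leaving out single livers gave 0 to 0 called higher and 0 to 1 lower, 447 to 942 higher and 337 to 756 lower at unadjusted p. For the cell cycle list the slope gave 5 members higher, Yellow against Pseudo_Ag 4 higher, 1 lower and a median of 0.15, probe sets without shared-sequence suffixes 8 higher and 12 above 0 of the 12 members left, and the Gapdh covariate a median of 1.36. Single omissions gave 10 to 16 higher, 0 to 0 lower, 20 to 21 above 0 and medians of 0.56 to 0.89. For the growth hormone list the slope gave 1 lower, the Gapdh covariate 8 lower, and probe sets without shared-sequence suffixes 3 above 0, 4 lower and a median of -1.08 over the 10 members left. Single omissions gave 1 to 2 higher, 1 to 6 lower, 3 to 6 above 0 and medians of -0.38 to -0.08. Slopes over the classes are scaled to the mean gap in class steps between the sides, as yellow minus pseudoagouti, and are not per class. The scaled slope of gene a was 1.06 (exact permutation p = 0.0198), and its difference was 0.83 to 1.36 without single livers. With permutations within the number, the replicate block for gene a, exact p was 0.167. Without the replicate block, liver minus kidney gave 585 probe sets and 1 cell cycle member. Single omissions gave 0 to 0 called, 697 to 1134 at unadjusted p and 0 to 7 cell cycle members for kidney, and 0 to 0, 635 to 1645 and 3 to 11 for brain. Ccnd1 turned to -0.053 with the scaled slope and -0.47 in Yellow against Pseudo_Ag. Single omissions gave -0.083 (without Heavily_Mottled number 1) to 0.35 for it, with -0.027 without Slightly_Mottled number 1. In Yellow against Pseudo_Ag, at the probe sets used for the list, Mcm2 was at -0.062, Plk1 at -0.077 and Cdkn1a at -0.087. The causes of these changes were not tested.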

Other observations

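The 2 Mottled livers entered no comparison. Gene a had signals of 384.3 and 229.7 in them (numbers 1 and 2), within or above the range of the yellow-side livers. The cell cycle median relative to the mean of the 8 fitted livers was 0.20 and -0.11. Arrdc3 had 2597.7 and 1223.2, and Osgin1 5607.3 and 3013.6. Hsd3b5 had 4977.9 and 959.3, and Alas2 10493.5 and 1691.6, so the livers of this class were unlike each other for these genes.

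The tests of liver against the other tissues named genes that the liver comparison did not. The smallest p of liver minus kidney, 7.89e-05, belonged to Ttll11, a tubulin ligase, whose side difference was -0.18 in liver and 1.55 in kidney. The smallest of liver minus brain, 1.36e-04, belonged to the deubiquitinase Usp9x, at 0.72 in liver and -0.42 in brain. G6pc, the last enzyme of glucose release, differed by 0.11 in liver and -0.74 in kidney, and Irs2, a carrier of insulin signals, by 0.01 and -1.22. Hepatocyte markers in the kidney arrays had a median side difference of 0.82, against -0.09 in liver, and the part of hepatocyte RNA in the kidney values was not tested. None of these passed the adjusted threshold in limma (lowest adjusted p 0.983).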
